A study of Caenorhabditis elegans with 10 samples.

Results

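The genes described here act when a fertilized oocyte becomes an embryo: egg-3, egg-4, egg-5, mbk-2, mei-1, mei-2 and zif-1, 7 of the 46589 genes listed in the count tables. They were listed by name for their known roles in egg activation and in the meiotic spindle of the oocyte, and were found by matching sequence names to symbols in the Ensembl annotation of the assembly WBcel235. RNA of whole Caenorhabditis elegans was sequenced in 5 male and 5 hermaphrodite samples, 1 library of each sex at each of 5 windows of age. Counted from hatching, late L3 larvae were taken at 30 to 34 h, early L4 larvae at 36 to 40 h, late L4 larvae at 42 to 46 h, and animals labelled young adult both at 48 to 52 h and at 54 to 58 h. All samples carried the genotype him-5 (the labels name no allele), a mutant background in which loss of the X chromosome in meiosis yields many males, and no other genotype was included. Males make sperm only. Hermaphrodites make a limited number of sperm as larvae and oocytes from then on. All animals were kept at 20 °C on NGM agar plates seeded with OP50, and TRIzol was used to extract total RNA. The series follows the transcriptomes of both sexes through sexual maturation, and the comparisons here are males against hermaphrodites, and later against earlier windows within a sex.

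A Caenorhabditis elegans oocyte stores the proteins and RNA that the embryo needs before it transcribes its own genome, and the switch is run mainly by kinases, microtubule severing and protein degradation. EGG-3, EGG-4 and EGG-5 are proteins of the oocyte cortex that resemble tyrosine phosphatases but lack their activity. They hold the kinase MBK-2 at the cortex until its release. MBK-2 then marks proteins such as OMA-1 and MEI-1 for degradation, MEI-1 and MEI-2 form the katanin that builds the meiotic spindle, and ZIF-1 directs maternal zinc finger proteins to a ubiquitin ligase in somatic cells of the embryo.

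Reads assigned to genes ranged from 8189325 to 27907544 per library. The male library of 54 to 58 h stood apart in its reads not aligned, 25.38% of all reads, against 3.70% to 5.58% in the other male libraries and 3.31% to 13.49% in hermaphrodites. Each member had 57 to 3919 reads per library and at least 5.94 CPM (reads of the gene scaled to library size, with TMM factors) in every library. All 7 therefore passed the filter on low values in both sexes, and none passed only through the sex in which it was higher. Of all genes, 15924 passed the filter. No sex and window was replicated, so single values carry no error of their own. The labels do not tell whether the libraries came from different cultures, so a p-value speaks only of the spread among the 10 samples sequenced. That spread includes differences between windows that the fit of a test does not take up, and the rest of it may be technical. The 6 male somatic markers summed to 41.3 to 151 CPM in male libraries and 0.473 to 3.13 CPM in hermaphrodite libraries, on the side their labels give.

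All 7 genes were lower in young adult males than in young adult hermaphrodites, and all 7 rose with age in hermaphrodites. At late L3 the sexes lay close together, the male level being 78.5% to 143% of the hermaphrodite level. The median over the members was 97.5% at early L4, 27.8% at late L4, 14.1% at 48 to 52 h and 12.4% at 54 to 58 h. The male level at 54 to 58 h was 5.28% of that of hermaphrodites for egg-5, the lowest of the members, and 39.5% for mbk-2, the highest. In RNA of whole animals, fewer cells of a type and less RNA per cell cannot be told apart.

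**Figure D1:**
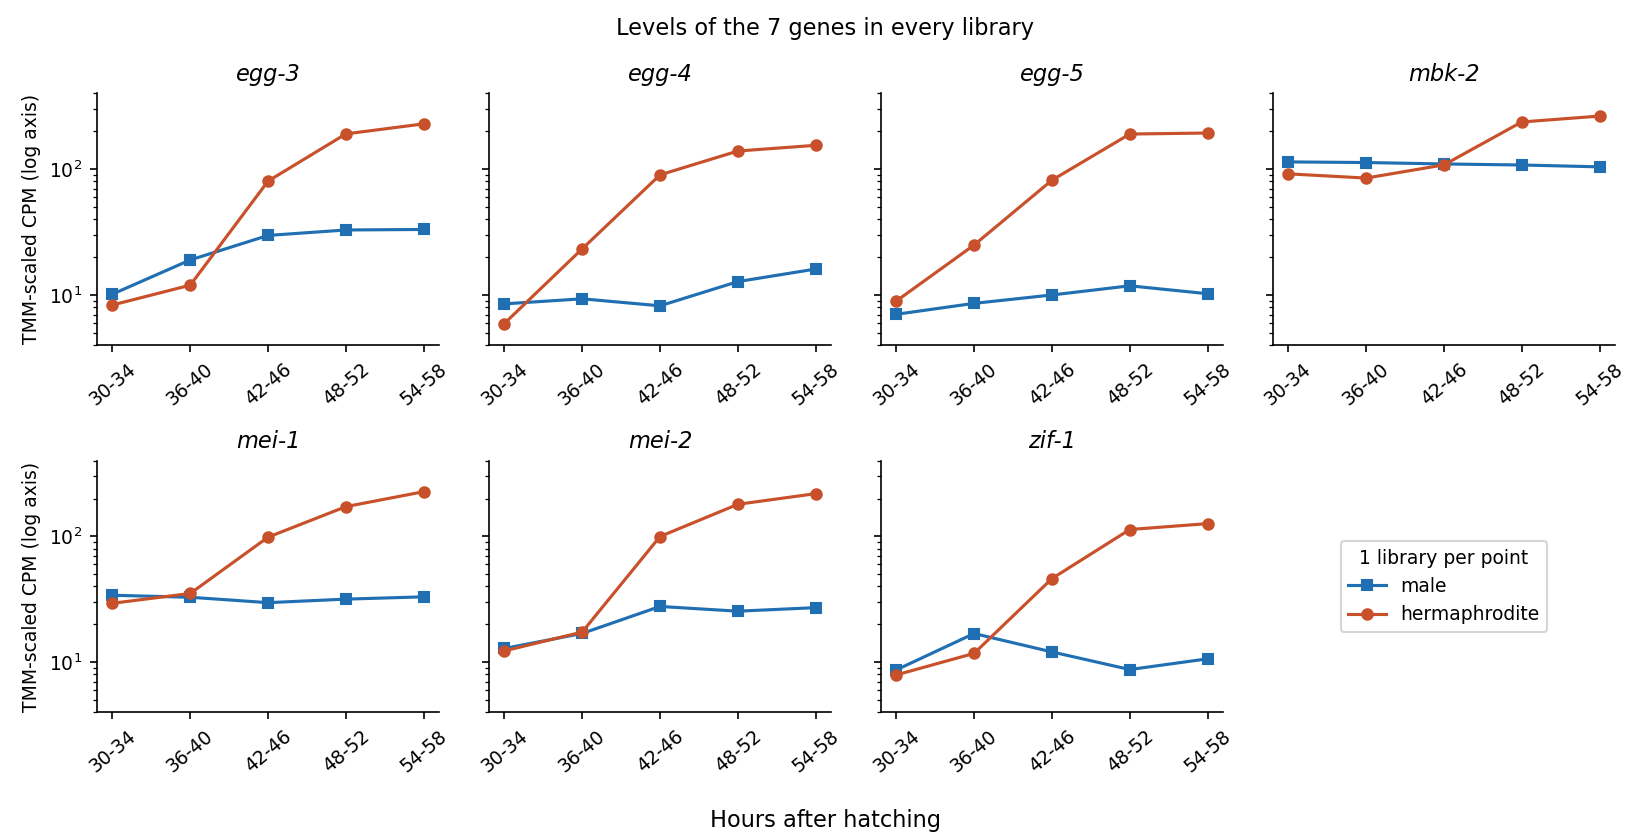
TMM-scaled CPM (log axis) of each gene against hours after hatching, with squares for males and circles for hermaphrodites, 1 library per point. The hermaphrodite lines climb above the male lines from early or late L4 onward, except that of mbk-2, which is still at the male level at 42 to 46 h (110 CPM in the male and 108 CPM in the hermaphrodite library).

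Among the cortical pseudophosphatases, egg-3 (sequence name F44F4.2, chromosome II, 10882408 to 10884441, minus strand, WBcel235) encodes the scaffold that recruits the others to the cortex and is needed to lay down the chitin of the eggshell. In order of age it had 10.2, 19.02, 29.8, 32.9 and 33.2 CPM in males, against 8.34, 11.99, 80.5, 191 and 229.5 CPM in hermaphrodites. Males were thus the higher sex at the first 2 windows and the lower from 42 to 46 h on. Male egg-3 was 3.27 times higher in its highest library than in its lowest, the widest male range of the 7 genes, against 27.5 times in hermaphrodites.

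The gene egg-4 (T21E3.1, chromosome I, 3932210 to 3934813, plus strand) encodes an inhibitor that binds MBK-2. It had 8.52, 9.34, 8.22, 12.8 and 16.1 CPM in males, against 5.94, 23.3, 90.2, 139.6 and 155 CPM in hermaphrodites. Its near-identical copy egg-5 (R12E2.10, chromosome I, 4168984 to 4171589, minus strand), which acts redundantly with it, had 7.04, 8.60, 10.02, 11.8 and 10.2 CPM in males, against 8.96, 25.0, 81.9, 190.5 and 194 CPM in hermaphrodites. From early L4 on, every male value of either gene lay under every hermaphrodite value. Reads with more than 1 place to align were not counted for any gene, so both counts come from the sequence in which the copies differ, and the levels and their ratio are uncertain. Per kilobase of exon, the ratio of egg-4 to egg-5 was 0.821 to 1.57 in males (median 1.09) and 0.663 to 1.10 in hermaphrodites (median 0.799).

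The kinase gene mbk-2 (F49E11.1, chromosome IV, 13009158 to 13035961, plus strand), of the DYRK family, had 114, 113, 110, 108 and 104.5 CPM in males, against 92.0, 85.1, 108, 238 and 265 CPM in hermaphrodites. Male mbk-2 hardly moved: its highest value was 1.10 times its lowest, the narrowest range of the 7 genes. The annotation gives it 14 transcripts and 27 distinct exons, and the counts do not separate the transcripts, so a maternal form and a somatic form cannot be told apart.

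The catalytic katanin subunit mei-1 (T01G9.5, chromosome I, 8294874 to 8296940, plus strand), an ATPase that severs microtubules, had 34.1, 32.8, 29.7, 31.7 and 33.1 CPM in males, against 29.4, 35.2, 98.6, 172 and 227 CPM in hermaphrodites. Its regulatory partner mei-2 (F57B10.12, chromosome I, 6564749 to 6565852, minus strand) had 12.9, 16.9, 27.7, 25.4 and 27.1 CPM in males, against 12.3, 17.4, 99.7, 179.9 and 219 CPM in hermaphrodites. At the first 2 windows the sexes lay close together for both genes, and from 42 to 46 h on both genes were at least 3.32 times higher in the hermaphrodite library. Per kilobase of exon, the ratio of mei-1 to mei-2 was lower at each of the last 3 windows than at either of the first 2 in both sexes. It was 1.55, 1.13, 0.626, 0.728 and 0.711 in males and 1.39, 1.18, 0.577, 0.559 and 0.605 in hermaphrodites.

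The substrate receptor gene zif-1 (F59B2.6, chromosome III, 9002779 to 9004839, plus strand) had 8.69, 16.9, 12.1, 8.75 and 10.6 CPM in males, against 7.92, 11.8, 46.2, 113 and 126 CPM in hermaphrodites. Its male level was highest at early L4, where males exceeded hermaphrodites (144%), and was 7.72% and 8.42% of the hermaphrodite level in the young adult windows.

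**Figure D2:**
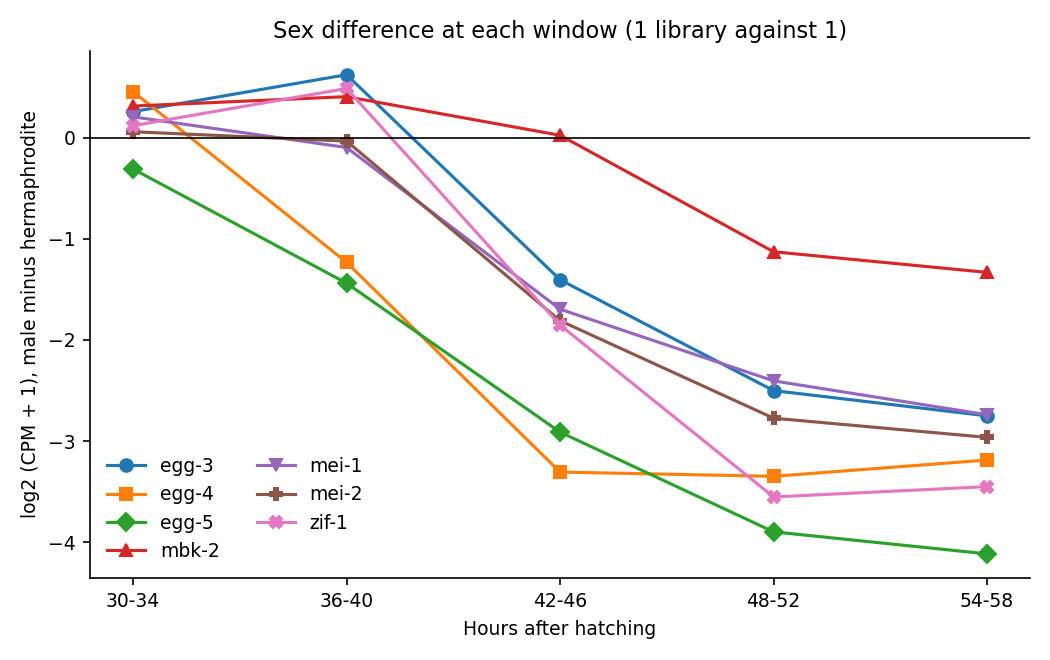
Difference of log2 (CPM + 1), male minus hermaphrodite, against hours after hatching, 1 line per gene and 1 library against 1 at each window. The lines of egg-4 and egg-5 are under -1 at 36 to 40 h, 4 others pass -1 at 42 to 46 h, and that of mbk-2 only at 48 to 52 h (-1.13).

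In young adults, with 2 libraries per sex, all 7 genes were called lower in males by edgeR's quasi-likelihood test (adjusted p below 0.05 over all 15924 genes), where 29.4% of all tested genes were called lower and 33% higher in males. The log2 ratio, with its approximate standard error, was -4.12 ± 0.22 for egg-5 (adjusted p = 0.000246), -3.63 ± 0.23 for zif-1 (adjusted p = 0.00037) and -3.35 ± 0.23 for egg-4 (adjusted p = 0.000424). It was -2.92 ± 0.21 for mei-2, -2.67 ± 0.21 for egg-3 and -2.62 ± 0.23 for mei-1, with adjusted p between 0.000457 and 0.000669. The smallest difference was that of mbk-2, -1.24 ± 0.18 (adjusted p = 0.00243). For each gene both male values lay under both hermaphrodite values. The members' median was -2.92, against 0.31 over all tested genes, so relative to that median the members lay between -4.43 and -1.55. All 7 calls were kept in each of the 11 alternatives run for this comparison, with log2 ratios from -4.23 to -0.93; without the male library of 54 to 58 h the largest adjusted p was 0.0182.

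**Figure D3:**
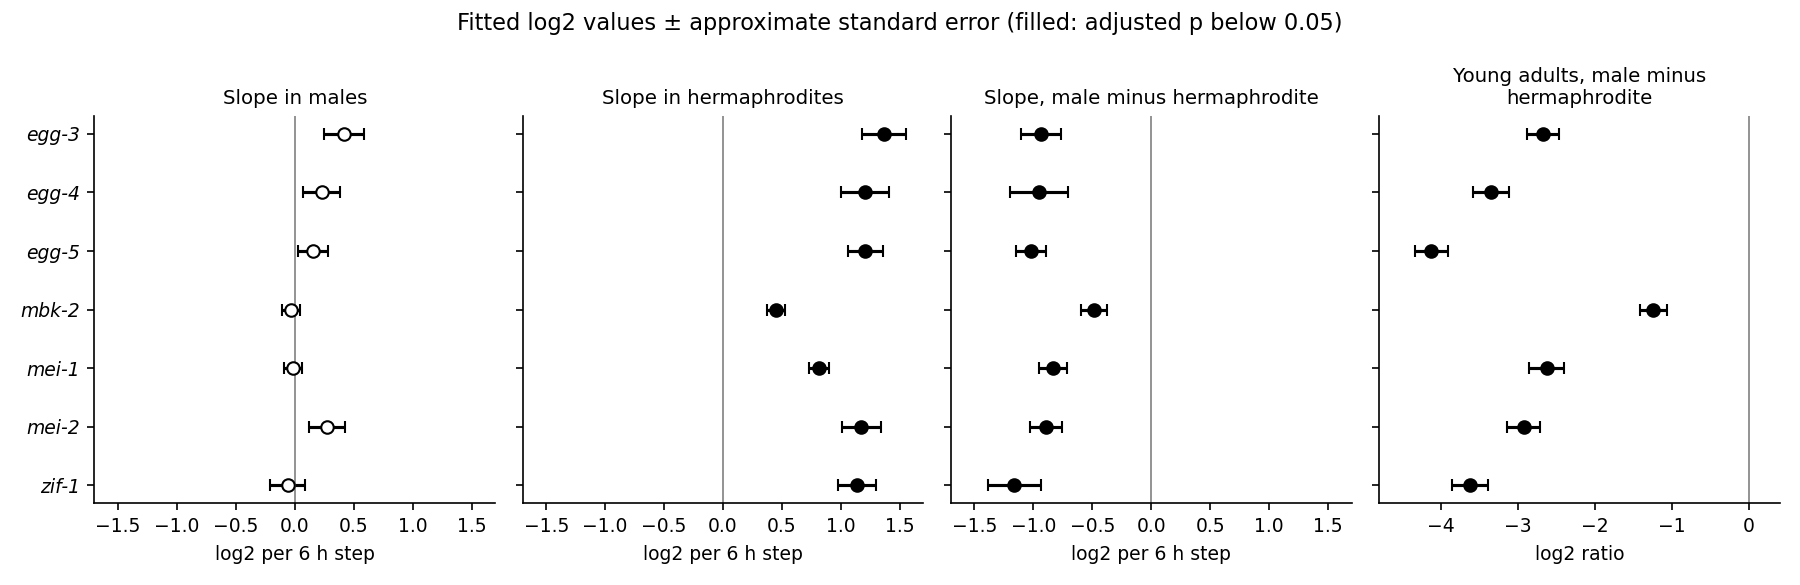
Fitted log2 values with approximate standard errors for each gene: slope per 6 h step in males, slope in hermaphrodites, difference of the slopes, and ratio in young adults, with filled points for adjusted p below 0.05. The 7 hermaphrodite slopes lie between 0.45 and 1.37 and the 7 male slopes between -0.06 and 0.42.

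Markers of germline cells also differed between the sexes, those of oocytes and of the germline of both sexes in the members' direction and those of sperm in the other. In the young adult libraries the 6 oocyte markers (rme-2, puf-5, cpg-1, cpg-2, perm-2 and perm-4) summed to 227 and 261 CPM in males and 5820 and 7780 CPM in hermaphrodites. All 6 were called lower in males, and none was at 0 there. The 6 germline markers that both sexes express (glh-1, pgl-1, pgl-3, htp-3, him-3 and rec-8) summed to 502 and 439 CPM in males and 1230 and 1310 CPM in hermaphrodites, and all 6 were called lower in males. The 8 sperm markers summed to 1570 and 1680 CPM in males and 61.8 and 9.92 CPM in hermaphrodites, all 8 called higher in males. The 6 yolk genes were called lower in males, with sums of 137 and 503 CPM against 39500 and 42400 CPM. Of 8 early zygotic genes, which mark embryos inside the mother, 2 were tested, pes-10 and nhr-2, and both were called lower in males; the 8 summed to 0.795 and 1.54 CPM in males and 18.8 and 35 CPM in hermaphrodites. The part of these cells and embryos in the members' difference was not tested.

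Set against the summed germline markers of both sexes, mbk-2 stood at 21.5% and 23.8% in young adult males and 19.3% and 20.3% in young adult hermaphrodites. The other 6 members were lower in both male libraries on this scale. Among them, egg-5 had 2.36% and 2.34% in males against 15.5% and 14.9% in hermaphrodites, and mei-2 had 5.07% and 6.18% in males against 14.6% and 16.7% in hermaphrodites. Set against the summed oocyte markers all 7 were higher in males, with mei-1 at 14.0% and 12.7% in young adult males against 2.96% and 2.91% in young adult hermaphrodites. These shares are descriptions with no test.

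Compared per kilobase of exon, mei-2 was the highest of the 7 genes in young adults of both sexes, at 27.3 ± 1.25 CPM per kb in males and 207 ± 28.4 in hermaphrodites (SD, n = 2 each). In males mbk-2 (21.9 ± 0.534), mei-1 (19.6 ± 0.579) and egg-3 (18.4 ± 0.124) followed without overlap. The lowest group was egg-4 (6.12 ± 0.992), zif-1 (5.43 ± 0.751) and egg-5 (4.67 ± 0.476), in which neighbours overlapped. In hermaphrodites the order was mei-1 (121 ± 23.2), egg-3 (117 ± 15.2), egg-5 (81.4 ± 1.08), zif-1 (67.2 ± 5.13), egg-4 (62.4 ± 4.59) and mbk-2 (51.8 ± 3.94), where the values of mei-1 overlapped those of egg-3 and the values of zif-1 those of egg-4. The gene mbk-2 thus stood next to the top in males and at the bottom in hermaphrodites. Its exon length, 4843 bases, joins alternative exons of all its transcripts, so its level per kilobase is too low if a shorter transcript prevails. For egg-4 and egg-5 the whole exon length was used, though reads that align to both copies were not counted. Their levels per kilobase may therefore be too low in both sexes, and their places in the order are uncertain.

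**Figure D4:**
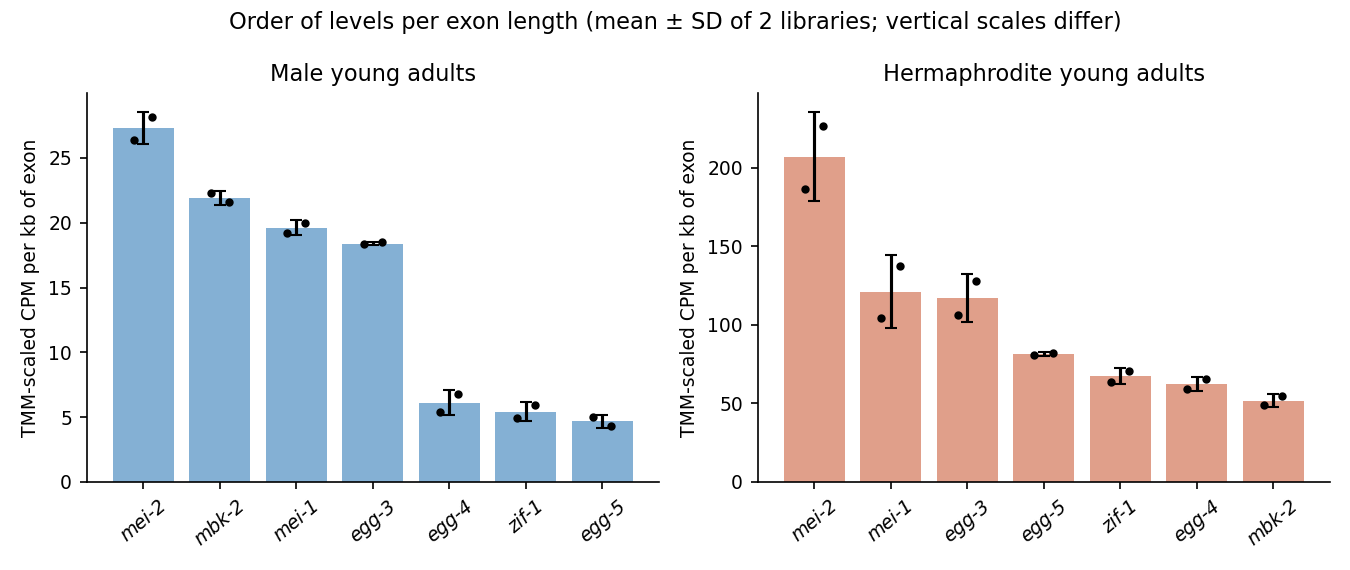
TMM-scaled CPM per kilobase of exon in young adults, males at the left and hermaphrodites at the right, genes in order of level in each sex. Bars are means, error bars are SD and dots are the 2 libraries. The vertical scales differ, with mei-2 at 27.3 in males and 207 in hermaphrodites. Levels of egg-4 and egg-5 may be too low, as reads that align to both copies were not counted.

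Over the course in hermaphrodites all 7 genes rose, where 20.9% of all tested genes were called rising and 16.9% falling. The log2 slope per 6 h step was 1.37 ± 0.18 for egg-3 (adjusted p = 0.00154), 1.21 ± 0.15 for egg-5 (0.00131 adjusted p) and 1.20 ± 0.20 for egg-4 (0.00296 adjusted p). It was 1.17 ± 0.17 for mei-2, 1.14 ± 0.16 for zif-1 and 0.82 ± 0.08 for mei-1, with adjusted p between 0.00129 and 0.00164. The shallowest slope was that of mbk-2, 0.45 ± 0.08 (adjusted p = 0.0034), and its call ended without the libraries of 54 to 58 h (adjusted p = 0.0584). The median over all tested genes was -0.15, and relative to it the members' slopes lay between 0.59 and 1.51. That range held under each of the 3 scalings tried, but a change of scaling shifts the slopes of all genes nearly alike. Its constancy is therefore no test of the choice of scaling. In the same libraries the summed oocyte markers were 49.9, 233, 2320, 5820 and 7780 CPM and the summed germline markers of both sexes 345, 455, 771, 1230 and 1310 CPM; all 6 genes of each list were called rising. Their part in the members' slopes was not tested.

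The rise was not spread evenly over the steps between windows. On log2 (CPM + 1), with 1 library against 1, 2 of 7 members (egg-4 and egg-5) were at least 2-fold higher at early L4 than at late L3 in hermaphrodites, where 14.6% of tested genes were. At the step to late L4, 6 of 7 were, all but mbk-2, against 14.3% of tested genes. The largest of these steps were 6.27-fold for egg-3 and 5.49-fold for mei-2. At the step to 48 to 52 h, 4 of 7 were (egg-3, egg-5, mbk-2 and zif-1, 2.18-fold to 2.42-fold), against 6.24% of tested genes. None was at the step to 54 to 58 h, where 1.07% of tested genes were and the largest member step was 1.31-fold, for mei-1.

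Members differed in where most of this rise fell. The step to late L4 held 60.7% of the whole log2 rise of mei-2, 57.3% of that of egg-3, 50.3% of mei-1 and 49.2% of zif-1. It held 42.5% of egg-4 and 39% of egg-5, whose rise had begun a window earlier with steps of 3.50-fold and 2.61-fold. For mbk-2 the step to late L4 held 22.7% and the step to 48 to 52 h held 74.3%.

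In males no member was called over the course by edgeR in the fit to both sexes. Only 0.59% of all tested genes were called there in either direction, so the lack of a call does not show a flat course. The male slopes were 0.42 for egg-3, 0.27 for mei-2, 0.23 for egg-4, 0.16 for egg-5, -0.01 for mei-1, -0.03 for mbk-2 and -0.06 for zif-1, with standard errors of 0.08 to 0.17 and adjusted p from 0.226 to 0.941 by edgeR. At an unadjusted p under 0.05 there was 1 of 7, egg-3 (unadjusted p = 0.0382), and DESeq2 called the same gene (adjusted p = 0.0434). With edgeR on the male libraries alone, 3 of 7 had an unadjusted p under 0.05. None was called there (lowest adjusted p = 0.0682), against 1466 of 15924 tested genes. The largest step between neighbouring windows in males was 1.85-fold, zif-1 at early L4. The oocyte markers summed to 67.3, 122, 222, 227 and 261 CPM over the male windows, with perm-4 at 0 at early L4, and their part in the male levels was not tested.

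The slopes were lower in males than in hermaphrodites for all 7 genes, where 10.2% of all tested genes were called so. The difference in log2 slope, male minus hermaphrodite, was largest for zif-1 (-1.16 ± 0.22, adjusted p = 0.0295) and egg-5 (-1.02 ± 0.13, adjusted p = 0.0239). It was smallest for mbk-2 (-0.49 ± 0.11, adjusted p = 0.0365), which was called in 7 of 14 alternatives. With no filter, 5 of 7 members were called. The other 4 lay between -0.95 and -0.83. That of egg-4 (-0.95, adjusted p = 0.0494) was called in 4 of 14 alternatives, and it was lost with library size only (adjusted p = 0.0928), with no filter (0.0513 adjusted p), with at least 5 CPM in 5 libraries (0.0542 adjusted p) and without both libraries of 30 to 34 h (-0.50, adjusted p = 0.259). This test kept 3 residual degrees of freedom, and without both libraries of any of the last 4 windows it called 0 of 7 members and 0 of all genes by edgeR, with 3441 to 5750 genes at an unadjusted p under 0.05. In those 4 repeats all 7 members still had an unadjusted p under 0.05, with adjusted p from 0.0505 to 0.178. Without the late L4 male library, or without the male library of 54 to 58 h, it also called 0 of 7, all 7 again with an unadjusted p under 0.05; DESeq2 on all libraries called 7 of 7.

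Averaged over all 5 windows, 2 of the 7 genes were called lower in males, egg-5 (-2.69 ± 0.64, adjusted p = 0.0326) and egg-4 (-2.31 ± 0.68, adjusted p = 0.0499), where 3.56% of all tested genes were called lower and 15.3% higher in males. The other 5 had negative ratios that did not pass, from -1.74 ± 0.78 for zif-1 (adjusted p = 0.133) to -0.34 ± 0.33 for mbk-2 (adjusted p = 0.453). The call of egg-4 was kept in 5 and that of egg-5 in 11 of 14 alternatives, and the count of members was 0 to 5 over them. Both calls ended without the libraries of 42 to 46 h, without those of 48 to 52 h, and without the male library of 42 to 46 h.

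Most of 49 other genes were also lower in young adult males. They were listed in 8 lists, of genes that act with the members and, in the last list, of 5 genes that act elsewhere. Those 5 are relatives of the members, except egg-6, which shares only a name. In young adults 41 of the 49 were called lower and 3 higher in males, and 5 were not called, with a median log2 ratio of -1.81; of all tested genes, 29.4% were called lower and 33% higher. In hermaphrodites 43 rose over the course and 6 were not called, where 20.9% of all tested genes were called rising. In males 0 of the 49 were called by edgeR in the fit to both sexes, where 0.59% of all tested genes were called, and 15 had an unadjusted p under 0.05. With edgeR on the male libraries alone 3 were called rising, and DESeq2 called 6 rising. Without the male library of 54 to 58 h, 38 were called lower and 1 higher in young adult males.

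**Figure D5:**
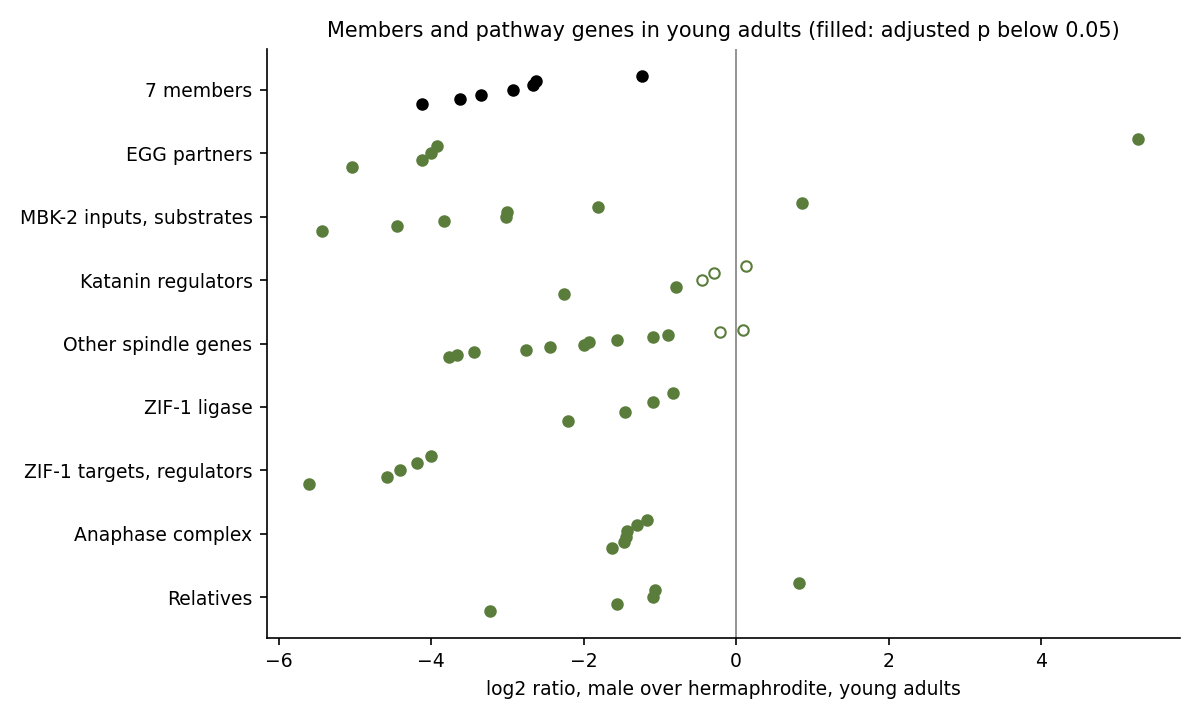
Log2 ratio of male over hermaphrodite young adults for the 7 members (top, black) and the 49 genes of 8 lists (green), with filled points for adjusted p below 0.05. All 7 members lie between -4.12 and -1.24, and spe-11 lies alone at 5.27.

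Of 5 partners of the EGG proteins, at the egg surface or from the sperm, 4 were called lower and 1 higher in young adult males. The chitin synthase chs-1 averaged 61.6 CPM in young adult males and 987 CPM in young adult hermaphrodites (log2 ratio -4.0 ± 0.19, adjusted p = 0.000198). The vitelline layer gene cbd-1 had a log2 ratio of -4.12 ± 0.17, and the egg membrane genes egg-1 and egg-2, whose proteins are needed for sperm entry, -5.04 ± 0.26 and -3.92 ± 0.27. The exception was spe-11, which encodes a sperm protein that the embryo needs after fertilization. It averaged 245 CPM in males and 6.31 CPM in hermaphrodites, a log2 ratio of 5.27 ± 1.09 (adjusted p = 0.00781).

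Of 7 kinase inputs and substrates of MBK-2, 6 were called lower and 1 higher in young adult males. The largest differences were those of oma-2 (-5.43 ± 0.25), whose close relative OMA-1 is a substrate of MBK-2, and of cyb-3 (-4.45 ± 0.25), a B-type cyclin. The smallest was that of gsk-3, a kinase that acts on OMA-1 after MBK-2, which had 59.3 and 86.7 CPM in young adult males and 46.1 and 34.1 CPM in young adult hermaphrodites (0.86 ± 0.28, adjusted p = 0.0383). Its call was kept in 7 of 11 alternatives and ended without the male library of 54 to 58 h (0.56, adjusted p = 0.205).

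The regulators of katanin had the median young adult ratio nearest to 0 of the 8 lists (-0.45). Of 5 genes, 2 were called lower in young adult males: mel-26, the adaptor that brings MEI-1 to its ubiquitin ligase (-2.25 ± 0.25, adjusted p = 0.00111), and pph-4.1, a phosphatase subunit (-0.79 ± 0.26, adjusted p = 0.041). The call of pph-4.1 ended in 7 of 11 alternatives. The ligase scaffold cul-3 averaged 271 CPM in young adult males and 248 CPM in young adult hermaphrodites (0.13 ± 0.18, adjusted p = 0.572). The other phosphatase gene ppfr-1 (-0.29 ± 0.18) and rfl-1 (-0.45 ± 0.20), which acts in the activation of cullins, were not called either.

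Of 12 other genes of the spindle without centrosomes, 10 were called lower in young adult males and 2 were not called. The largest differences were those of kca-1 (-3.76 ± 0.23), an adaptor of kinesin-1, and mesp-1 (-3.66 ± 0.23), the partner of the kinesin KLP-18. The smallest was that of unc-116, the kinesin-1 heavy chain, used in neurons too (0.09 ± 0.19, adjusted p = 0.70). All 6 genes of the anaphase promoting complex list were called lower in young adult males, from mat-2 (-1.63 ± 0.19) and emb-30 (-1.48 ± 0.20) to mat-1 (-1.17 ± 0.20).

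Among the 4 partners of ZIF-1 in its ubiquitin ligase all were called lower in young adult males, with log2 ratios of -2.21 ± 0.31 for elb-1, -1.46 ± 0.20 for rbx-1, -1.09 ± 0.20 for elc-1 and -0.82 ± 0.19 for cul-2. Of these, cul-2 kept its call in 9 of 11 alternatives. The 5 genes of targets of ZIF-1 and of regulators of its translation were all called lower: pos-1 (-5.61 ± 0.27), pie-1 (-4.58 ± 0.48), mex-1 (-4.42 ± 0.24), spn-4 (-4.19 ± 0.22) and mex-3 (-4.01 ± 0.30). Each of these 5 ratios was further from 0 than that of zif-1 itself (-3.63).

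Of the 5 genes listed as acting elsewhere, 4 were called lower and 1 higher in young adult males. The kinase mbk-1, a relative of MBK-2, had -1.09 ± 0.29, and hpk-1, a more distant kinase, 0.82 ± 0.20. The severing enzymes spas-1 and figl-1 had -1.56 ± 0.20 and -1.06 ± 0.26, and egg-6, which shares a name but encodes a leucine-rich repeat protein, -3.24 ± 0.19. Without the male library of 54 to 58 h the calls of hpk-1 (adjusted p = 0.0741), mbk-1 (0.146 adjusted p) and figl-1 (0.0899 adjusted p) ended.

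As a description over the 10 libraries, the log2 (CPM + 1) of the 7 genes followed each other with Pearson's r of 0.765 to 0.983 in their 21 pairs (median 0.942). Over the 5 male libraries alone, r ranged from -0.884 for egg-4 with mbk-2 to 0.974 for egg-3 with mei-2. Male mbk-2 hardly moved there, its highest value being 1.10 times its lowest. The 10 libraries share sex and age as sources of likeness. Among the 10807 tested genes that averaged 5 CPM or more, those most like each member were cyb-2.2 (r = 0.998), a B-type cyclin, and R07B7.2 (0.996) for egg-3, puf-3 (0.991) and marc-3 (0.990) for egg-4, and Y54F10AM.11 (0.997) and mcm-5 (0.996) for egg-5. For mbk-2 they were rbm-25 (0.988) and wsp-1 (0.986). For mei-1 they were F43D2.2 (0.998) and evl-14 (0.997), for mei-2 F44E2.2 (0.998) and the polo-like kinase plk-3 (0.998), and for zif-1 vps-53 (0.993) and H31G24.3 (0.992).

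The sources used here do not state whether reads were counted by strand, and 4 members share exon bases with a gene on the opposite strand. These were 21 bases of egg-3 with lurp-1, 6 of mbk-2 with F49E11.2, 24 of mei-1 with abts-1 and 19 of zif-1 with rab-6.1. Of the 4 neighbours, rab-6.1 was called rising in hermaphrodites (log2 slope 0.36 ± 0.07, adjusted p = 0.00607) and lower in young adult males (-1.09 ± 0.20, adjusted p = 0.00507), both smaller than the values of zif-1. The other 3 neighbours were called in neither test. The genes egg-4, egg-5 and mei-2 overlap no gene on the opposite strand.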

How the data were processed

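Raw counts of reads per gene were deposited as 1 table per library, for which the submitters' processing notes name CASAVA 1.8 and HTSeq. For the aligner, genome build, HTSeq version and strand setting, the entry is: not given in the sources used here. Reads aligned to several places (11.23% to 17.83% of all reads) were given to no gene, and the 5 totals that name no gene stayed out of library sizes and tests. Of 46589 sequence names, 46180 matched the Ensembl annotation of WBcel235, and 409 did not.

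Genes reaching 1 CPM in 2 or more libraries were tested by edgeR 4.0.16 in R 4.3.3 (quasi-likelihood test, TMM factors from all 10 libraries, Benjamini-Hochberg adjustment, threshold 0.05). Sex over 5 windows had window as a block (4 residual degrees of freedom). Slopes came from 1 fit to all libraries (6), their difference from a fit with window as a block (3), and young adults from 2 libraries per sex (2). Standard errors are approximate: the size of log2 over the root of the F statistic. Log2 ratios are male over hermaphrodite. The replicate number is the window in the labels, so same-numbered libraries were paired by age. They deviated together from the means of their sex (correlations 0.248 to 0.467). Shared age alone can give this, so it shows no pairing beyond age. Tests were also run on simulated counts with the same dispersion for all genes and no differences between libraries besides the changes put in. That check does not cover the spread between windows in these data.

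All members are named. Lists of up to 5 genes are named whole, longer ones by the 2 called genes with the largest and the 1 gene with the smallest sex difference, read in young adults, and 2 genes most like each member by Pearson's r. Members and lists were chosen with earlier results of these data known. Alternatives were RLE factors, library size only, no filter, at least 5 CPM in 5 libraries, DESeq2 1.42.0, leaving out ribosomal RNA and mitochondrial genes, either sex alone, with or without the replicate block, and leaving out libraries. The slope tests without the late L4 male library or the last male library were chosen after seeing the data.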

Additional observations from a re-analysis of the deposited data

Results flagged for a closer look

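For all 7 genes the change over the course differed between the sexes by a test of the difference itself. The log2 slope per 6 h step, male minus hermaphrodite, was -0.94 for egg-3, -0.95 for egg-4, -1.02 for egg-5, -0.49 for mbk-2, -0.83 for mei-1, -0.89 for mei-2 and -1.16 for zif-1. None of these calls was kept when both libraries of 36 to 40 h, 42 to 46 h, 48 to 52 h or 54 to 58 h were left out. No member had a library far from the other 4 of its sex by a rule on gaps. The rule asks for an end gap above 0.71 of the range of log2 (CPM + 1). The libraries of a sex differ in age, so the range includes the change with age and the rule can miss a deviating library.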

How the results depend on the processing

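In young adults all 7 members stayed lower in males and past the threshold under every alternative run, and with the replicate block 8717 genes were called in all. Over 5 windows 3003 genes were called, against 1350 with at least 5 CPM in 5 libraries, 5920 by DESeq2, and 118 to 3076 with libraries left out. The members called there were 1 with library size only, 4 with no filter, 1 with at least 5 CPM in 5 libraries, 5 by DESeq2, 1 without ribosomal RNA and mitochondrial genes, 5 with no replicate block (3977 genes) and 0 to 2 with libraries left out. The slope in hermaphrodites called 6016 genes, against 3807 in that sex alone and 1962 to 5742 with libraries left out. The slope in males called 94, against 61 with at least 5 CPM in 5 libraries, 2007 by DESeq2 (1 member), 1466 in that sex alone and 0 to 136 with libraries left out (28 without the last male library). The slope difference called 2519, against 1407 with library size only, 1666 with no filter, 5685 by DESeq2, 2697 with no replicate block and 0 to 2132 with libraries left out (3 without the last male library), and 0 to 6 members with libraries left out. The signs of 3 male slopes near 0, none of them called, turned: mbk-2 to 0.027 with RLE factors and by DESeq2, and -0.033 to 0.035 with libraries left out; mei-1 to 0.046 with RLE factors and by DESeq2, 0.017 with no filter, and -0.039 to 0.084 with libraries left out; zif-1 to 0 with RLE factors, and -0.172 to 0.045 with libraries left out. The cause was not tested. Of the 12 repeats for each of the 7 hermaphrodite slopes, only mbk-2 without the libraries of 54 to 58 h lost its call. No sex and window was replicated, so the error of every test came from departures between windows and not from replicates. With window as a block, differences between windows shared by both sexes were taken out. What remained was the change of the sex difference between windows, or for the slope difference its departure from a line. The slope fits took out a line with age in each sex. In young adults the spread between the windows of each sex entered the error.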
